A study of Mus musculus with 12 samples.

Results

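The antioxidant genes of the Nrf2 system were examined in oligodendrocytes sorted from the brains of Jab1-mutant mice. They were 10 genes picked by symbol, namely Nfe2l2, Nqo1, Gclc, Gclm, Txnrd1, Srxn1, Sod1, Sod2, Cat and Gpx4, out of 55376 symbols in the table of RNA-Seq counts. All 10 were counted in every one of the 12 samples and passed the filter on low counts, which left 17716 genes for the tests.

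The 12 samples were O1+ CD45- cells sorted by FACS from C57BL/6 brains at P40 (postnatal day 40), with 4 samples for each of 3 genotypes and 2 brains pooled in each sample. O1 is a surface lipid antigen of maturing oligodendrocytes and CD45 marks blood-derived cells and microglia. Of the genotypes, WT served as control, Cnp-Cre Jab1fl/fl carried a Cre transgene with floxed Jab1, and Cnp-Cre Jab1fl/fl p21CIP1-/- mice, called double mutants below, were in addition germline knockouts of Cdkn1a. The Cnp-Cre transgene recombines floxed Jab1, the gene Cops5 of the COP9 signalosome subunit CSN5, in late oligodendrocyte progenitors and differentiated oligodendrocytes, whereas the p21CIP1 knockout affects every cell of the animal. WT samples carry replicate numbers 1, 3, 5 and 6, Cnp-Cre Jab1fl/fl samples 1 to 4, and double mutants 1, 2, 3 and 5, and values are given below in that order.

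Nfe2l2 encodes Nrf2, a transcription factor that an adaptor, Keap1, holds and presents to a Cul3 ubiquitin ligase for degradation. Oxidants and electrophiles modify Keap1, after which Nrf2 accumulates, pairs with small Maf proteins and binds antioxidant response elements of genes for glutathione synthesis, thioredoxin recycling and quinone reduction. The ligases of the Cul3 class are regulated by the COP9 signalosome, which removes Nedd8 from cullins. Oligodendrocytes hold much iron and make large amounts of lipid, and their antioxidant reserve is known to be modest. Superoxide dismutases, catalase and the lipid peroxidase Gpx4 act downstream on superoxide and peroxides and are only in part under the control of Nrf2.

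The core of the antioxidant response element was searched as TGACNNNGC on both strands of the windows from 250 bases before to 50 bases after RefSeq transcript starts (build GRCm38.p6). It can contain TGACTCA, the letters of the AP-1 motif. Windows were listed for 9 of the 10 genes, and Gclc had no entry. The letters were present for 5 of these 9 genes, in 5 of their 14 windows, and in 4071 of all 32851 windows (12.4%), or at 3781 of the 27025 genes listed. The 5 matches are shown because Nrf2 binds this element, with the motif in capitals and the sequence 5′ to 3′ on the strand of the gene.
Nfe2l2, chr2:75704865-75704913, minus strand: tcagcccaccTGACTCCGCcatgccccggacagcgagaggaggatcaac
Gclm, chr3:122245393-122245461, plus strand: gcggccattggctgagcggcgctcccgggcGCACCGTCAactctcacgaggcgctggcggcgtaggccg
Txnrd1, chr10:82859084-82859152, plus strand: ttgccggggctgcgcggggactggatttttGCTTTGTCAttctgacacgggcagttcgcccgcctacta
Srxn1, chr2:152105542-152105570, plus strand: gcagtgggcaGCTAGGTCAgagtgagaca
Sod1, chr16:90220676-90220744, plus strand: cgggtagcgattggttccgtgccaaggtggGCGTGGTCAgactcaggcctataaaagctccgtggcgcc
In Nfe2l2 the motif reads in the direction of the gene, and in the other 4 it lies on the opposite strand. It began 240 bases before the listed start in Nfe2l2, 134 in Gclm, 92 in Txnrd1 and 56 in Sod1, whereas in Srxn1 it lay 28 bases after the start. A match describes letters only, and the absence of these letters from the windows of Nqo1, Sod2, Cat and Gpx4 says nothing about elements farther away.

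Total counts per sample were 61485556 to 153495112, so that each member rested on 514 or more counts in every sample. Levels are given as CPM, counts scaled to the sequencing depth of each sample with TMM factors. Cops5, the targeted gene, was at 133, 46.3, 127 and 105 CPM in WT, at 89.0, 65.2, 68.4 and 45.0 CPM in Cnp-Cre Jab1fl/fl and at 47.3, 44.3, 90.4 and 52.3 CPM in double mutants. WT replicate 3 lay within the range of the mutants, and neither mutant genotype passed the test for Cops5 against WT (edgeR adjusted p = 0.349 and 0.424). Cdkn1a was at 15.98 to 85.3 CPM in WT samples, at 379 to 637 CPM in Cnp-Cre Jab1fl/fl samples and at 64.7 to 103 CPM in double mutants. Counts per gene take in exons outside the deleted part of an allele, so that these values of Cops5 and Cdkn1a do not check the labels. By quantitative PCR on sorted O1+ cells, the paper reports significantly less Cops5 in Cnp-Cre Jab1fl/fl than in WT. It reports no detectable Cdkn1a in double mutants by the same method. All 8 markers of mature oligodendrocytes were counted in every sample, with summed levels of 44300 to 102900 CPM among WT samples, 8841 to 34450 CPM among Cnp-Cre Jab1fl/fl samples and 16660 to 51750 CPM among double mutants. The 12 markers of microglia summed to 92.2 to 263 CPM among WT samples, 958 to 2434 CPM among Cnp-Cre Jab1fl/fl samples and 365 to 17050 CPM among double mutants, where replicate 3 alone was at 17050 and the other 3 were at or below 1877. Markers of choroid plexus epithelium summed to 296 to 4093 CPM, 6483 to 24590 CPM and 5414 to 24010 CPM in the same 3 genotypes. Endothelial markers summed to 178 to 355 CPM, 433 to 2929 CPM and 344 to 2449 CPM. Astrocyte markers summed to 5099 to 12250 CPM, 3179 to 7947 CPM and 3646 to 10150 CPM in the same order. These are bulk samples, in which fewer cells of a type and less RNA per cell cannot be told apart.

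Nfe2l2 (chr2:75675513-75704641, minus strand, GRCm38) was at 91.1, 77.0, 92.9 and 80.8 CPM in WT. It was at 107, 144, 114 and 82.9 CPM in Cnp-Cre Jab1fl/fl and at 85.4, 94.7, 218 and 94.3 CPM in double mutants. The WT samples lay close together, 3 of 4 Cnp-Cre Jab1fl/fl samples were above all of them, and double mutant replicate 3 stood far above the other 11 samples. The same sample had the highest sum of microglial markers, and the part of these cells in its Nfe2l2 level was not tested. The means were 85.4 ± 7.80, 112 ± 25.2 and 123 ± 63.6 CPM (SD, n = 4 each).

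Nqo1 (chr8:107388225-107403206, minus strand), a quinone reductase and a standard readout of Nrf2 activity, was at 12.2, 15.3, 8.94 and 5.57 CPM in WT. In Cnp-Cre Jab1fl/fl it was at 14.1, 27.1, 39.6 and 32.4 CPM, and in double mutants at 19.1, 8.99, 21.6 and 31.6 CPM. In each mutant genotype 3 of 4 samples were above the highest WT sample and 1 lay within the WT range. The means were 10.5 ± 4.21 CPM in WT, 28.3 ± 10.7 CPM in Cnp-Cre Jab1fl/fl and 20.3 ± 9.27 CPM in double mutants (SD, n = 4 each). Cnp-Cre Jab1fl/fl replicate 3 had both the highest Nqo1 level and the highest sum of choroid plexus markers of the 12 samples, 24590 CPM, whereas double mutant replicate 3, at 24010 CPM of these markers, was at 21.6 CPM of Nqo1. The part of these cells in the levels of Nqo1 was not tested.

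**Figure D1:**
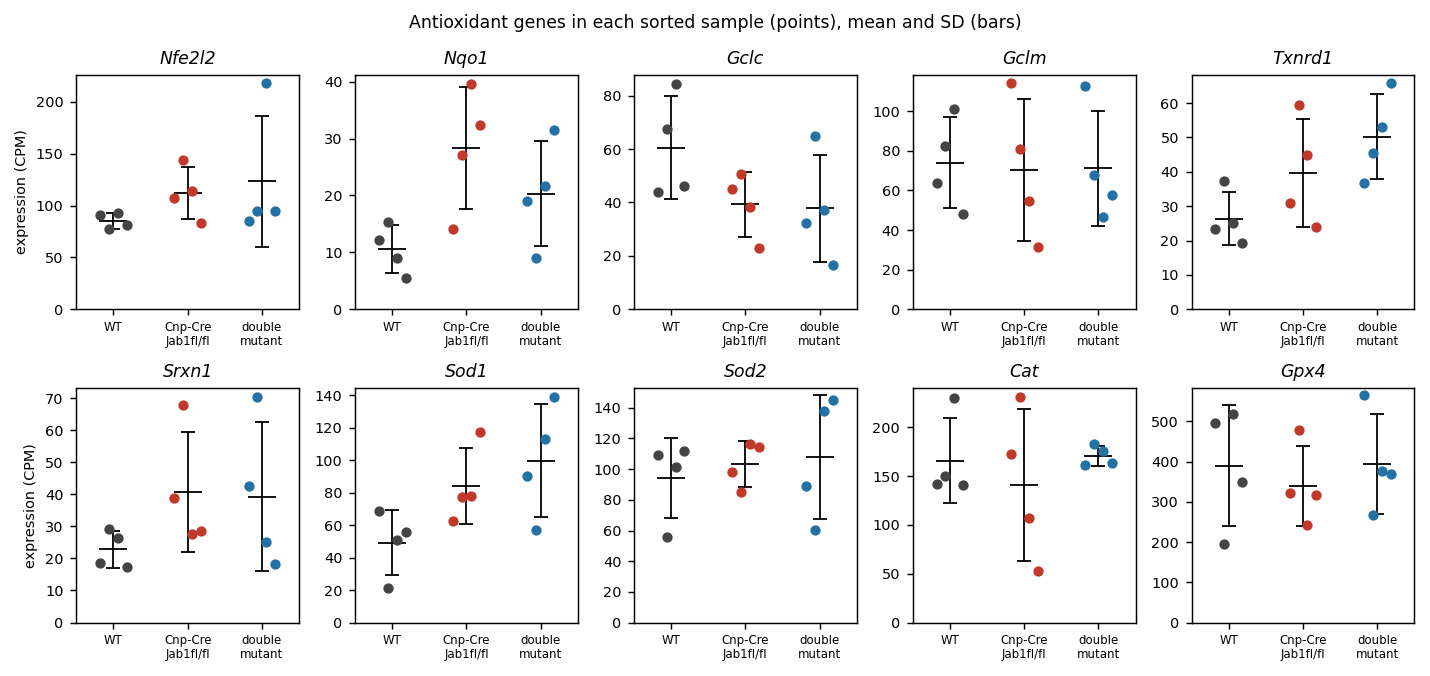
Expression in CPM of each of the 10 antioxidant genes (vertical axes, each from 0) in the 4 samples of each genotype (points), with the mean and SD as bars. Samples of different genotypes overlapped for each of the 10 genes. Of all genes, 17.1% were apart for Cnp-Cre Jab1fl/fl against WT, 8.1% for double mutants against WT and 3.22% between the mutant genotypes. Double mutant replicate 3 stood apart for Nfe2l2 at 218 CPM.

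Gclc and Gclm encode the catalytic and the modifier subunit of glutamate-cysteine ligase, the rate-limiting enzyme of glutathione synthesis. Gclc (chr9:77754535-77794485, plus strand) was at 44.0, 67.6, 84.5 and 46.2 CPM in WT, at 45.1, 50.8, 38.4 and 22.8 CPM in Cnp-Cre Jab1fl/fl and at 32.4, 64.9, 37.3 and 16.7 CPM in double mutants. Gclm (chr3:122245557-122270732, plus strand) was at 63.9, 82.6, 101 and 48.3 CPM in WT, at 114, 80.7, 54.7 and 31.3 CPM in Cnp-Cre Jab1fl/fl and at 113, 67.6, 46.6 and 57.5 CPM in double mutants. For Gclm the genotypes overlapped over nearly their whole ranges. For Gclc, 2 of 4 Cnp-Cre Jab1fl/fl samples and 3 of 4 double mutants were below the lowest WT sample, and mean levels were 60.6 ± 19.2, 39.3 ± 12.1 and 37.8 ± 20.1 CPM (SD, n = 4 each).

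Txnrd1, the cytosolic thioredoxin reductase, and Srxn1, which reduces overoxidized peroxiredoxins, serve thiol repair. Txnrd1 (chr10:82833951-82897712, plus strand) was at 23.5, 37.3, 25.2 and 19.3 CPM in WT, at 30.8, 59.4, 44.8 and 23.9 CPM in Cnp-Cre Jab1fl/fl and at 36.6, 45.4, 53.0 and 65.9 CPM in double mutants. Only WT replicate 3 kept the double mutants from lying wholly above WT for this gene. Srxn1 (chr2:152105516-152111376, plus strand) was at 18.7, 29.1, 26.3 and 17.2 CPM in WT, at 38.8, 68.0, 27.6 and 28.7 CPM in Cnp-Cre Jab1fl/fl and at 42.7, 70.5, 25.2 and 18.4 CPM in double mutants. In both mutant genotypes, 2 samples were above all WT samples and 2 were within their range.

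Sod1 and Sod2 are the superoxide dismutases of the cytosol and of mitochondria, Cat is the catalase of peroxisomes, and Gpx4 reduces lipid hydroperoxides in membranes. Sod1 (chr16:90220754-90226329, plus strand) was at 68.8, 21.4, 51.0 and 55.9 CPM in WT, at 62.8, 77.5, 78.1 and 117 CPM in Cnp-Cre Jab1fl/fl and at 90.0, 57.2, 113 and 139 CPM in double mutants. In each mutant genotype 3 of 4 samples exceeded the highest WT sample, and WT replicate 3 was the lowest of all 12. Sod2 (chr17:13006846-13040063, plus strand) was at 109, 55.9, 101 and 112 CPM in WT, at 97.9, 84.9, 116 and 114 CPM in Cnp-Cre Jab1fl/fl and at 88.7, 60.6, 138 and 145 CPM in double mutants, so that WT replicate 3 was again the lowest. Cat (chr2:103453849-103485160, minus strand) was at 142, 150, 231 and 141 CPM in WT, at 173, 232, 107 and 52.4 CPM in Cnp-Cre Jab1fl/fl and at 162, 183, 176 and 163 CPM in double mutants. The 4 double mutants were the closest together for Cat and the 4 Cnp-Cre Jab1fl/fl samples the farthest apart. Gpx4 (chr10:80047166-80056439, plus strand) was at 495, 196, 520 and 350 CPM in WT, at 321, 478, 243 and 316 CPM in Cnp-Cre Jab1fl/fl and at 565, 266, 376 and 369 CPM in double mutants, with no order among the genotypes. The table also holds 2 processed copies of this gene, Gpx4-ps1 with 5 to 104 counts and Gpx4-ps2 with 732 to 2709 counts per sample. How reads that match several places were counted is not given in the sources used here, so that the level of Gpx4 is uncertain.

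The comparison of Cnp-Cre Jab1fl/fl with WT asks how these transcripts differ between sorted samples with and without deletion of Jab1 in oligodendrocytes. A change within oligodendrocytes cannot be told apart here from a change in composition, since summed markers of several cell types also differed. Of the 10 antioxidant genes, 0 passed the test in either direction, while 7.64% of all 17716 genes did, 5.19% as higher and 2.46% as lower (edgeR quasi-likelihood test, Benjamini-Hochberg adjusted p below 0.05). The nearest to the threshold was Nqo1, with a log2 fold change of 1.43 (SE 0.45, 95% interval 0.45 to 2.40), equal to 2.69-fold, and an edgeR adjusted p of 0.0779. DESeq2, which calls 15.2% of all genes here, called 1 of the 10 genes, Nqo1 (DESeq2 adjusted p = 0.0214), and edgeR limited to genes averaging 10 CPM or more also called Nqo1 (adjusted p = 0.0362). By edgeR, Nqo1 did not pass without the filter (adjusted p = 0.167), in 1 fit of all 12 samples (0.0941) or with RLE size factors (0.0730). Leaving out each sample in turn gave 1.22 to 1.65 on the log2 scale for Nqo1 and an adjusted p from 0.0577 to 0.192. At an unadjusted p below 0.05 there were 2 of 10 genes, Nqo1 and Srxn1, against 22.5% of all genes.

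The other 9 genes spanned log2 fold changes from -0.63 to 0.84 in Cnp-Cre Jab1fl/fl against WT. Srxn1 had a log2 fold change of 0.84 (SE 0.37) with an edgeR adjusted p of 0.207, and Sod1 had 0.77 (SE 0.37) with 0.247. Txnrd1 was at 0.59 (SE 0.36) and Nfe2l2 at 0.39 (SE 0.26) on the same scale. Both are thus within about 2 standard errors of no difference. The lowest value was that of Gclc at -0.63 (SE 0.34, adjusted p = 0.309), whereas its partner Gclm was at -0.07 (95% interval -0.95 to 0.80). Cat at -0.24, Gpx4 at -0.20 and Sod2 at 0.13 had intervals that reached from -1.15 to 0.68, from -0.99 to 0.59 and from -0.51 to 0.77. Each of these 3 intervals takes in differences in either direction. The samples of the genotypes did not separate fully for any of the 10 genes, and did so for 17.1% of all genes. The median log2 fold change of the 10 genes was 0.26, with 6 above and 4 below 0. For all genes tested the median was 0.02, with 51.0% above 0.

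The comparison of double mutants with WT gave 0 of 10 genes past the test, and 0.192% of all genes, 0.175% as higher and 0.0169% as lower. Txnrd1, with a log2 fold change of 0.92 (SE 0.32, 95% interval 0.22 to 1.62), and Sod1, with 1.01 (SE 0.40, 95% interval 0.12 to 1.90), had the smallest unadjusted p-values, but their edgeR adjusted p-values were 0.263 and 0.335. These were the 2 of 10 genes with an unadjusted p below 0.05, against 12.4% of all genes. Nqo1 was at 0.94 (SE 0.48), Srxn1 at 0.76 (SE 0.43) and Nfe2l2 at 0.52 (SE 0.35) on the log2 scale. Without double mutant replicate 3, whose Nfe2l2 level was the highest of all samples, Nfe2l2 was at 0.09. Gclc was at -0.69 (SE 0.41), and Gclm, Sod2, Cat and Gpx4 lay between -0.07 and 0.18. DESeq2 called 0 of the 10 genes and 4.87% of all genes. The groups were apart for 0 of 10 genes and for 8.1% of all genes, and 8 of the 10 values were above 0, with a median of 0.35 beside 0.00 for all genes.

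The comparison of double mutants with Cnp-Cre Jab1fl/fl asks how these transcripts differ with the added loss of p21CIP1, in samples whose composition may differ too. Nqo1 had the largest difference, -0.48 on the log2 scale (SE 0.46, 95% interval -1.5 to 0.54), and Txnrd1 the next, 0.34 (SE 0.36, 95% interval -0.45 to 1.13). The other 8 genes lay between -0.06 and 0.28, with edgeR adjusted p-values of 0.998 or more for all 10. By edgeR, 0 of the 10 genes and 0% of all genes passed, and at an unadjusted p below 0.05 these were 0 of 10 and 5% of all genes. DESeq2 called 0 of the 10 genes and 0.491% of all genes. Samples were apart for 0 of 10 genes and 3.22% of all genes, and the median of the 10 values was 0.10 beside 0.02 for all genes. The interval of Nqo1 takes in a log2 difference of -1.5, so that these data do not show equal levels in the 2 mutant genotypes. All comparisons share samples, since WT enters 2 of them and each mutant genotype does too.

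**Figure D2:**
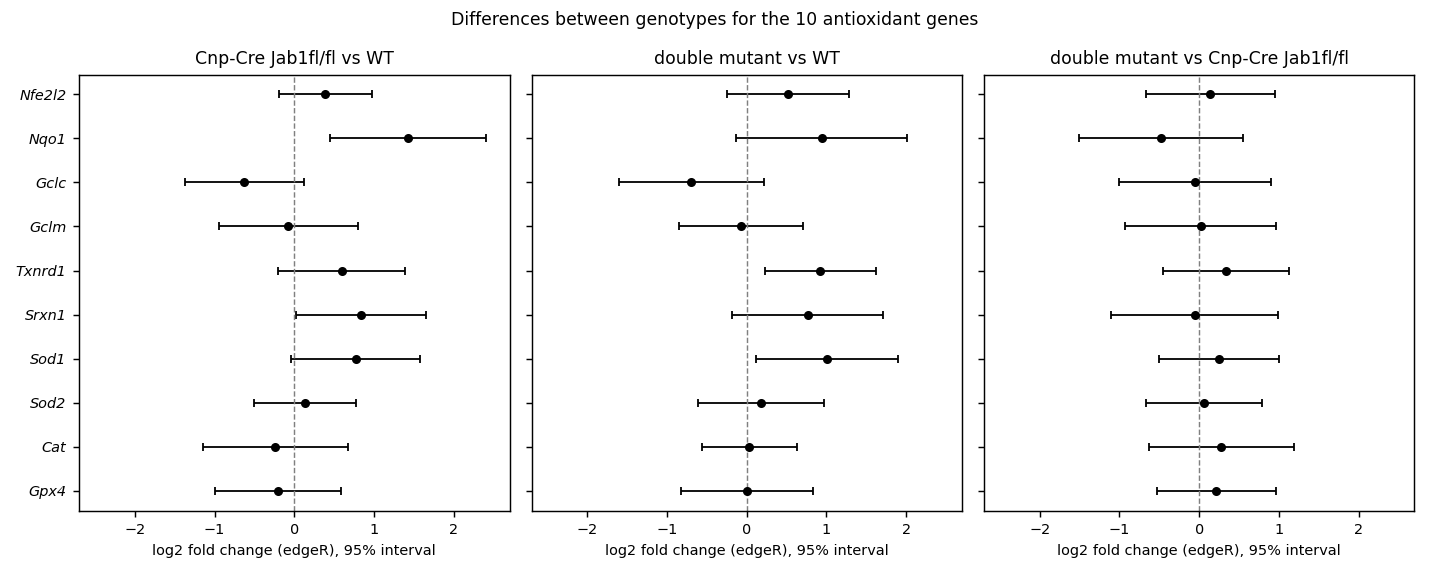
Log2 fold change of each antioxidant gene (points) with its 95% interval (bars) in the 3 comparisons of genotypes, by edgeR's quasi-likelihood fit. For Cnp-Cre Jab1fl/fl against WT the interval of Nqo1 (0.45 to 2.40) lies above 0, but its edgeR adjusted p was 0.0779. No gene shown passed in any comparison, beside 7.64%, 0.192% and 0% of all genes in the order of the panels.

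Levels per length of exon allow genes to be compared within a genotype. In WT, Gpx4 was the most abundant at 307 ± 118 CPM per kilobase, followed by Sod1 at 76.9 ± 31.3 and Cat at 63.5 ± 16.5, whose samples overlapped each other but not those of Gpx4. Nfe2l2 stood alone below them at 34.5 ± 3.15 CPM per kilobase. The other 6 genes, Gclc, Sod2, Gclm, Srxn1, Nqo1 and Txnrd1, ranged from 17.7 ± 5.60 down to 6.46 ± 1.90 CPM per kilobase, with each one overlapping the next in order. In Cnp-Cre Jab1fl/fl the 4 most abundant genes had the same order, with Sod1 at 131 ± 36.4 CPM per kilobase and apart from both Gpx4 and Cat. Nqo1, at 18.2 ± 6.92 CPM per kilobase, ranked behind 4 of the 10 genes there and behind 8 in WT, but its samples overlapped those of its neighbour Sod2 at 17.6 ± 2.52. In double mutants Gpx4 at 310 ± 97.8 and Sod1 at 156 ± 54.1 CPM per kilobase overlapped, and Gclc was the lowest at 11.1 ± 5.87.

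**Figure D3:**
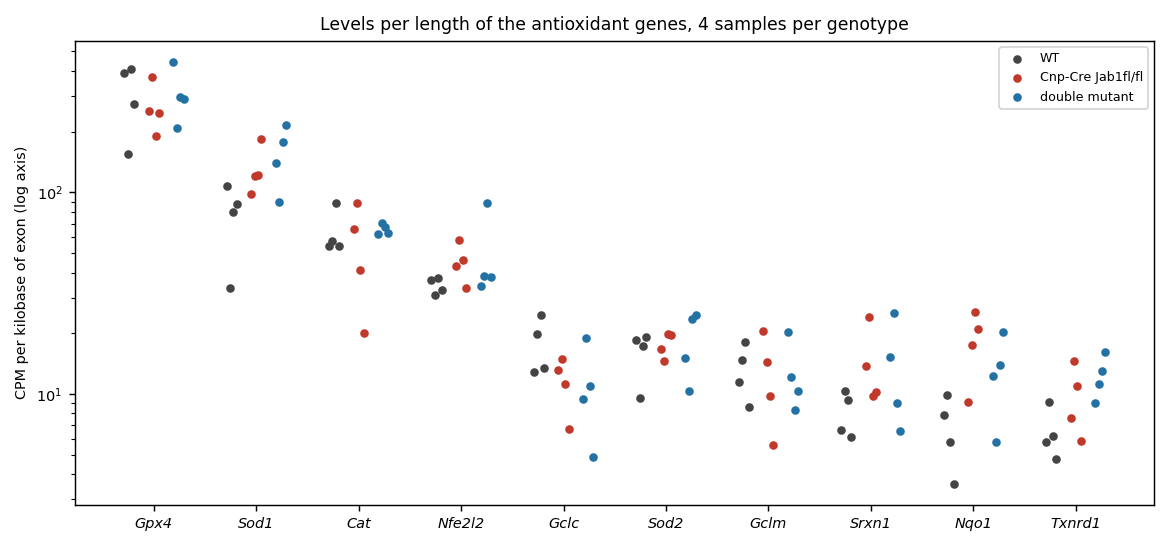
CPM per kilobase of exon (log axis) of the antioxidant genes in each sample (points), coloured by genotype, ordered by the WT mean. The levels span from Gpx4 at 307 to Txnrd1 at 6.46 CPM per kilobase in WT, and each of the lowest 6 genes overlaps the next in the WT order.

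The 10 genes did not move as a block from sample to sample. On the scale of log2(CPM + 1) centred on the mean of each gene over the 12 samples, the spread of a gene (root mean square) ran from 0.40 for Sod2 and Nfe2l2 to 0.78 for Nqo1. The most alike were Gclm and Cat, with a root mean square difference of 0.41, and Sod1 and Sod2, with 0.44. The most unlike were Nqo1 and Gclc, with 1.26. Nqo1 was the farthest gene for 6 of the other 9. Sample by sample, Sod1 was at -1.68 in WT replicate 3 and at 0.96 in double mutant replicate 5, where Gclc was at its lowest. Cat had its lowest value in Cnp-Cre Jab1fl/fl replicate 4, as did Gclm. These are descriptions over 12 samples that share genotype and composition.

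**Figure D4:**
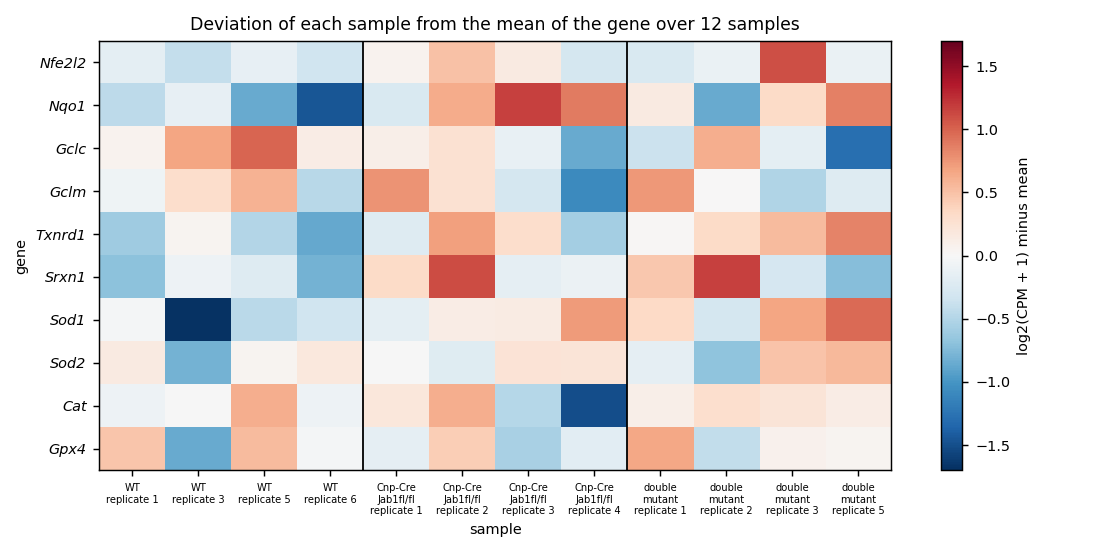
Colour shows log2(CPM + 1) of each gene (rows) in each sample (columns) minus the mean of that gene over the 12 samples, with black lines between genotypes. Nqo1 is below its mean in all 4 WT samples and above it in 6 of the 8 mutant samples, and Sod1 is the lowest in WT replicate 3.

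By the same measure, the 3 genes outside the group most like Nfe2l2 among genes averaging 10 CPM or more were Dkc1 (root mean square difference 0.23), Herpud1 (0.24) and Zfand3 (0.24). Those most like Nqo1 were Arid3b (0.41), Lig1 (0.43) and Atxn7l3 (0.44). Among the 10 genes, Txnrd1 was the nearest to Nqo1 at 0.64, and Sod2 was the nearest to Nfe2l2 at 0.45. Far more genes were searched outside the group than within it. Nearer genes outside it can thus arise from numbers alone, and no conclusion on the group is drawn.

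Around these genes, the 13 regulators and partners of Nrf2 included 0 past the test in Cnp-Cre Jab1fl/fl against WT, beside 7.64% of all genes, with a smallest adjusted p of 0.124 and a median log2 fold change of 0.09. Keap1, the adaptor that holds Nrf2, named here after its values were seen, was at 52.8 ± 18.4 CPM in WT, 42.4 ± 15.5 CPM in Cnp-Cre Jab1fl/fl and 44.5 ± 0.885 CPM in double mutants (SD, n = 4 each), and its samples overlapped between genotypes. Nfe2l1, a related factor, was at 36.2 to 59.4 CPM in WT and at 65.8 to 102 CPM in Cnp-Cre Jab1fl/fl, with a log2 fold change of 0.80 and an edgeR adjusted p of 0.124. Nfe2l3, another relative, was at 26.8 to 53.3 CPM in WT and at 2.93 to 23.7 CPM in Cnp-Cre Jab1fl/fl, at -1.32 and 0.182. The small Maf gene Maff (2.78) and the repressor gene Bach2 (-0.69), the next in each direction, had edgeR adjusted p-values of 0.221 and 0.444. The value of Maff rests on low counts, 6 to 194 in WT and 57 to 665 in Cnp-Cre Jab1fl/fl, with a 95% interval of 0.005 to 5.56.

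Of 25 further targets of Nrf2, 0 rose and 1 fell in Cnp-Cre Jab1fl/fl against WT, beside 5.19% and 2.46% of all genes. Their median log2 fold change was -0.04, beside 0.02 for all genes. At an unadjusted edgeR p below 0.05 there were 11 of the 25, in both directions, against 22.5% of all genes. Slc6a9, a glycine transporter gene, fell by 3.28 on the log2 scale (SE 0.82, edgeR adjusted p = 0.0338). It was at 45.9, 528, 123 and 33.6 CPM in WT and at 19.9, 30.5, 8.83 and 15.8 CPM in Cnp-Cre Jab1fl/fl, so that 1 WT sample set most of its mean. Without WT replicate 3, its value was -1.86, and the call held in 3 of the 8 fits that left out 1 sample, with an adjusted p up to 0.0954. The oxidase gene Aox1 (-1.38, adjusted p = 0.0514), the epoxide hydrolase gene Ephx1 (1.08, 0.0555) and the glutathione transferase gene Gsta4 (1.42, 0.0563) were next and did not pass, although the samples of the 2 genotypes were apart for each, as for 7 of the 25 genes and 17.1% of all genes. DESeq2 called 5 of the 25 as higher and 3 as lower, beside 15.2% of all genes in either direction. Hmox1, the heme oxygenase gene, was at 1.19 with an adjusted p of 0.323, and Slc7a11, the cystine importer gene, at -0.68 with 0.350, both named after their values were seen.

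Among 32 other enzymes of peroxide, thiol and glutathione chemistry, 2 rose and 0 fell in Cnp-Cre Jab1fl/fl against WT, beside 7.64% of all genes called, so that the count was near that of all genes. The median log2 fold change was 0.32, with 24 of 32 values above 0, beside a median of 0.02 and 51.0% above 0 for all genes. Txnip, which encodes an inhibitor of thioredoxin, was at 21.7, 23.5, 13.1 and 11.03 CPM in WT and at 91.6, 44.8, 49.9 and 59.7 CPM in Cnp-Cre Jab1fl/fl. It rose 3.55-fold (log2 fold change 1.83, SE 0.37, edgeR adjusted p = 0.0137) and passed in all 8 fits that left out 1 sample. Such fits do not address a difference in composition that the mutant samples share. The highest Txnip value of the 12 samples, 94.0 CPM, was in double mutant replicate 3, which had the highest sum of microglial markers. The part of other cell types in Txnip was not tested. Gpx1, the glutathione peroxidase of the cytosol, was at 118, 33.4, 86.6 and 92.6 CPM in WT and at 366, 176, 160 and 258 CPM in Cnp-Cre Jab1fl/fl. It rose 2.91-fold (log2 fold change 1.54, SE 0.42, edgeR adjusted p = 0.0460), but passed in only 1 of the 8 fits without 1 sample, with adjusted p-values up to 0.120. The highest Gpx1 value of the 12 samples, 434 CPM, was in double mutant replicate 3, where microglial markers were also highest, and the part of these cells in Gpx1 was not tested. Gss, the glutathione synthetase gene, was at -1.37 (adjusted p = 0.130) and Ggt7 at -0.95 (adjusted p = 0.125).

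The 5 genes examined of the phagocyte NADPH oxidase, which makes superoxide, included 3 that rose and 0 that fell in Cnp-Cre Jab1fl/fl against WT, beside 5.19% and 2.46% of all genes. Cybb, absent from the WT counts, met the filter on low counts only through mutant samples and could only rise. Ncf1, Ncf4 and Rac2 were at or below 1.78 CPM in every WT sample and had little room to fall. The count of 0 that fell was thus largely set by these WT levels. Cyba was at 5.21 to 18.4 CPM in WT and at 40.3 to 128 CPM in Cnp-Cre Jab1fl/fl (log2 fold change 2.77, edgeR adjusted p = 0.00679). Cybb, the catalytic subunit, had 0 counts in all 4 WT samples and 4.32 to 7.66 CPM in Cnp-Cre Jab1fl/fl, at least 221-fold higher against a floor of 3 counts per library (edgeR adjusted p = 0.00301). Ncf1 rose by 5.06 on the log2 scale (adjusted p = 0.00331), and all 3 calls held in each of the 8 fits without 1 sample. Ncf4 (adjusted p = 0.141) and Rac2 (adjusted p = 0.0922) did not pass. These genes are textbook genes of phagocytes, and all 12 microglial markers were also called higher in this comparison. Ptprc, the gene of CD45, was at 0 to 1.53 CPM in WT samples, at 31.7 to 107 CPM in Cnp-Cre Jab1fl/fl samples and at 3.11 to 101 CPM in double mutants. The part of microglia in these results was not tested.

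In double mutants against WT, and against Cnp-Cre Jab1fl/fl, 0 genes of the 4 related lists passed the edgeR test, beside 0.192% and 0% of all genes. DESeq2 called 8 of these 75 genes in double mutants against WT, all as higher, and 0 against Cnp-Cre Jab1fl/fl, beside 4.87% and 0.491% of all genes. Txnip was at 31.5, 26.7, 94.0 and 56.9 CPM and Gpx1 at 118, 112, 434 and 369 CPM in the double mutants, with edgeR adjusted p-values of 0.197 and 0.245 against WT. Cybb was at 0.0214, 5.69, 15.7 and 3.74 CPM in the double mutants, whose sums of microglial markers were 365, 823, 17050 and 1877 CPM. The part of microglia in these levels was not tested.

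**Figure D5:**
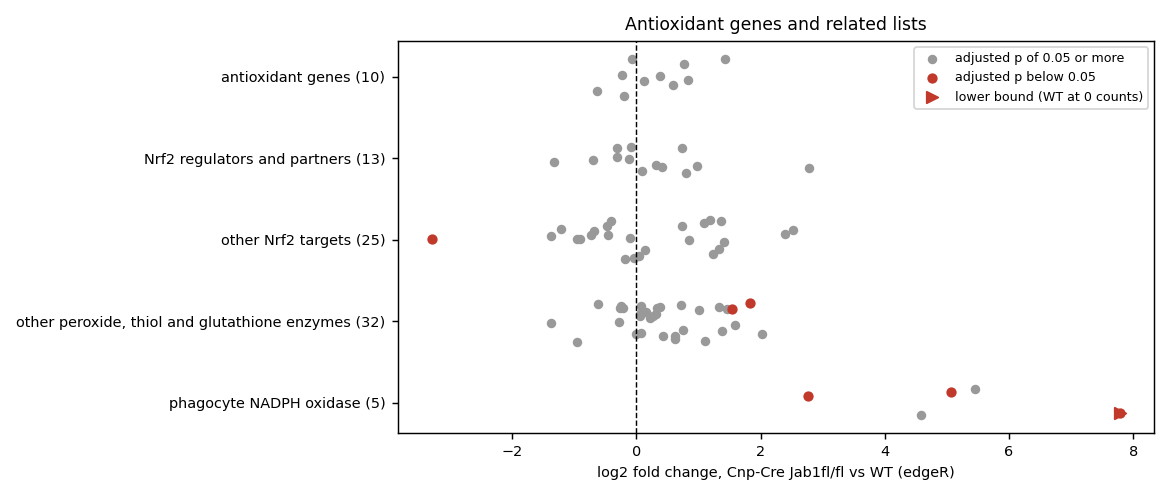
Log2 fold change of Cnp-Cre Jab1fl/fl against WT (horizontal axis) for the 10 antioxidant genes and 4 lists of related genes (1 point per gene, list size in parentheses, vertical scatter for visibility only), red where the adjusted p is below 0.05. Cybb, with 0 counts in all 4 WT samples, could only rise and is drawn as a triangle at its lower bound. Red marks 0 of 10 antioxidant genes and 3 of 5 phagocyte NADPH oxidase genes, and 7.64% of all genes passed this test.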

How the data were processed

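RNA was amplified by the authors with a SMART-Seq v4 kit and sequenced as paired ends. Reads were trimmed with Trimmomatic 0.32, aligned to GRCm38 with STAR 2.5.3a and counted with featureCounts on the GENCODE basic annotation, per the paper and the submitters' processing notes. Whether strand was used in counting is not given in the sources used here. The authors deposited these raw counts by gene symbol, neither normalized nor filtered. Of 55376 symbols, 54402 (98.2%) matched 1 gene of GENCODE release M21, which gave positions and exon lengths. The paper names a later release for counting, so that exon lengths, and with them CPM per kilobase, may differ from those counted on. No column was left out. No exon of the 10 genes shared bases with another gene of that annotation.

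CPM were computed with TMM factors. The 17716 genes reaching 1 CPM in 4 or more of the 12 samples were tested with edgeR 4.0.16 (quasi-likelihood, R 4.3.3) on the 8 samples compared, with Benjamini-Hochberg adjustment over all genes and a threshold of 0.05. Alternatives were DESeq2 1.42.0, a run without the filter, a stricter limit of 10 CPM on the mean and 1 fit of all 12 samples. Others were the replicate number as a block among samples with shared numbers, RLE size factors for tests and levels, and each sample left out in turn. The scripts were checked on simulated counts. The replicates are separate pools of 2 brains, and no pair of the same genotype agreed within sampling noise, with a lowest chi-square per degree of freedom of 210. The reads carry no molecular identifiers, so that the floor of 3 counts covers counting error only.

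The 10 genes and all lists were chosen with earlier results of these data known, and 1 gene was left out of the related lists and is not reported here. All 10 genes are named, with the 2 genes of smallest p in each direction and the called genes of each related list in Cnp-Cre Jab1fl/fl against WT, and the 3 genes nearest to Nfe2l2 and Nqo1. Markers of astrocytes, mural cells, neurons, oligodendrocyte progenitor cells and border macrophages were also read, with 0, 2, 0, 1 and 1 called higher and 0 called lower in Cnp-Cre Jab1fl/fl against WT. For microglia 12 of 12, for endothelial cells 3 of 6 and for choroid plexus 2 of 5 were called higher, and for mature oligodendrocytes 5 of 8 lower.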

Additional observations from a re-analysis of the deposited data

Results flagged for a closer look

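Among 30 sets of 4 samples (10 genes in 3 genotypes), 2 had a sample whose gap to its nearest neighbour took up more of the range than Dixon's 95% limit of 0.829, and chance gives about 1.5 in 30. Nfe2l2 was at 218.4 CPM in double mutant replicate 3, with the other 3 double mutants at 85.4 to 94.7 CPM. This sample also had the highest sum of microglial markers, 17050 CPM, and their part in the level was not tested. Cat was at 230.5 CPM in WT replicate 5, with the other 3 WT samples at 141 to 150 CPM, and this sample had the highest sum of markers of mature oligodendrocytes, 102900 CPM, whose part was not tested either.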

How the results depend on the processing

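Of the 10 genes, DESeq2 and the limit to a mean of at least 10 CPM each called 1 in Cnp-Cre Jab1fl/fl against WT, Nqo1 (1.43, and 1.55 on the log2 scale), and 0 were called with any 1 sample left out. Of 180 log2 fold changes of the 10 genes under the alternatives other than leaving out samples, 168 kept their direction and side of the threshold, 2 passed it and 10 turned sign, all in values near 0. Under the limit of 10 CPM these were Gclm in Cnp-Cre Jab1fl/fl against WT (0.0216), and Gclm (-0.0118) and Sod2 (-0.0025) in double mutants against Cnp-Cre Jab1fl/fl, and without a filter Cat (-0.0324) and Gpx4 (-0.0657) in double mutants against WT.

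Same-numbered samples did not deviate together (correlations from -0.19 to 0.08), so that the numbers were not taken as pairs. The block fit used only samples whose replicate numbers occur in both genotypes. These were replicates 1 and 3 in Cnp-Cre Jab1fl/fl against WT and 1, 3 and 5 in double mutants against WT. In double mutants against Cnp-Cre Jab1fl/fl they were replicates 1, 2 and 3. Effects of the block and of the samples left out therefore cannot be told apart here. With the replicate block, 718 genes were called in Cnp-Cre Jab1fl/fl against WT (1354 in the main fit) and 1 in double mutants against WT (34 in the main fit). Nqo1 in Cnp-Cre Jab1fl/fl against WT was at 0.81 with the block (edgeR adjusted p = 0.769). With the block, values that turned sign were Gclm in Cnp-Cre Jab1fl/fl against WT (0.14), Cat in double mutants against WT (-0.0178), and Gclm (-0.15), Srxn1 (0.0372) and Sod2 (-0.11) in double mutants against Cnp-Cre Jab1fl/fl.

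In Cnp-Cre Jab1fl/fl against WT, DESeq2 called 2689 genes and 16 of the 75 related ones (6 by edgeR), and the limit of 10 CPM called 13 related genes. In double mutants against WT, the calls were 862 by DESeq2 (663 higher, 199 lower), 21 without a filter, 139 at 10 CPM and 164 in 1 fit of all samples, and related genes 8 by DESeq2, 1 at 10 CPM and 3 in 1 fit. In double mutants against Cnp-Cre Jab1fl/fl they were 87 by DESeq2 and 5 at 10 CPM. The cause was not tested.

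With 1 sample left out, genes called ranged from 678 to 1863, from 1 to 274 and from 0 to 2 in the 3 comparisons, and related genes called from 4 to 13, from 0 to 3 and at 0. Leaving out any sample but Cnp-Cre Jab1fl/fl replicate 2 moved the first of these counts by over 1.5 times (fewest without WT replicate 5), and any sample moved the next (274 without double mutant replicate 1). In Cnp-Cre Jab1fl/fl against WT, Gclm ran from -0.41 to 0.15, Sod2 from -0.0709 to 0.22 and Cat from -0.60 to 0.0155. In double mutants against WT, Gclm ran from -0.38 to 0.15, Sod2 from -0.0035 to 0.38, Cat from -0.0394 to 0.25 and Gpx4 from -0.22 to 0.18. In double mutants against Cnp-Cre Jab1fl/fl, Nfe2l2 ran from -0.27 to 0.29, Gclc from -0.45 to 0.19, Gclm from -0.28 to 0.38, Srxn1 from -0.50 to 0.31, Sod2 from -0.11 to 0.26 and Gpx4 from -0.0016 to 0.43. Counts of 514 or more per sample put counting error far below the spread between samples, which limits the results.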
